A study of Mus musculus with 10 samples.

Results

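The 10 genes described here encode the proteins with which a cell senses bacterial endotoxin and related microbial molecules: the Toll-like receptors Tlr2, Tlr3, Tlr4 and Tlr6, the endotoxin-handling proteins Lbp, Cd14 and Ly96, and the signalling proteins Myd88, Ticam1 and Irak1. They were selected on gene symbol in the 3 tables of all genes, which hold 46509 rows each, and in the joined list of 1852 genes. All 10 symbols were found in the 3 tables and 1 of them, Lbp, in the joined list. The choice was made with the FPKM values and ratios of these libraries already known, so the levels, ratios and counts given for these genes are descriptions and none is a test. The question put to the values was whether the tubule cells express the receptors that an endotoxin response would need. No label lists endotoxin among the treatments.

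The RNA came from conditionally immortalized mouse renal proximal tubule cells of a mixed strain labelled N2 FVB, from mice with a floxed TbRII gene crossed with the Immorto-mouse, whose cells carry an immortalizing gene that interferon gamma switches on. Transfection with siRNA was at 33 °C, and cells were then held at 37 °C with interferon gamma removed. The study made 10 libraries of 100 nt reads, 1 per group, to set beta-catenin and FoxO responses with and without oxidative stress side by side. Whether the cells are a single clone is not given in the sources used here.

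Libraries 7 to 10 carry most of the values. All 4 were given hydrogen peroxide (H2O2) at 100 uM and Wnt3a, a ligand that stabilizes beta-catenin, at 20 ng/mL. Library 7 received scramble siRNA, library 8 FoxO1 siRNA, library 9 is labelled FoxO3 siRNA, and library 10 received both siRNAs. The joined list adds 4 libraries without siRNA: library 1 had no H2O2 and the Wnt diluting buffer, library 2 had no H2O2 and Wnt3a, library 5 had H2O2 with no Wnt treatment entered in its label, and library 6 had H2O2 and Wnt3a. Libraries 3 and 4, with Wnt3a and no H2O2 after scramble siRNA or both siRNAs, have values here for the second joined list only, in which none of the 10 genes appears.

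Endotoxin, the lipopolysaccharide of Gram-negative bacteria, is picked up by the serum protein Lbp, handed to Cd14 and loaded onto Ly96 (MD-2), which sits on the outside of Tlr4. The occupied Tlr4 signals from the cell surface through Tirap and Myd88 to the Irak kinases and NF-kB, and from endosomes through Ticam2 and Ticam1 (TRIF) to Irf3 and interferon genes. In the kidney, Tlr4 of tubule cells is known for its part in injury after sepsis and after loss of blood flow.

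The targeted genes were read first. Foxo1 stood at 7.92 FPKM in library 7, 3.66 in library 8, 8.54 in library 9 and 4.67 in library 10, which is 46.2% of library 7 in library 8 and 58.8% in library 10. Foxo3 stood at 19.7, 17.7, 19.9 and 17.4 FPKM in the same order. It was at 101% of library 7 in the library labelled FoxO3 siRNA, so this library is named by its label throughout. Depth is unknown, because no counts are given, and with 1 library per group no difference has a replicate check.

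Markers of other cell types were read for the same libraries. Of 12 leukocyte and macrophage markers, 9 were under 0.5 FPKM in all 4 libraries, and Adgre1, Tyrobp and Cd3e were among those listed at 0 in all 4. The pan-leukocyte marker Ptprc was at 0.02 FPKM in library 7. Cd68, a lysosomal protein of macrophages, was highest at 5.28 to 6.20 FPKM. The macrophage growth factor receptor Csf1r was detected too, at 1.80, 1.68, 2.22 and 1.23 FPKM in libraries 7 to 10, and Itgam reached 0.64 in library 10. The summed level of the 12 markers ran from 7.89 to 8.21 FPKM over the 4 libraries, and the part of such cells in the values of the 10 genes was not tested. The labelled cell type was carried by some of its markers only: Pax8 (101 FPKM in library 7), Aqp1 (14.3) and Lrp2 (13.98) were present, 8 of 13 proximal tubule markers were under 0.5 FPKM in all 4 libraries, and Slc34a1 and Hnf4a, which define the mature proximal tubule, were at or near 0. Aqp1, a water channel, was higher than in library 7 by 1.32 (log2) in library 9 and by 0.68 in library 10, and its relation to the values of the 10 genes was not tested. Of 6 epithelial markers 3 were detected, while all 4 endothelial and all 5 fibroblast markers were under 0.5 FPKM in the 4 libraries.

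All 10 genes were detected, with detected meaning an FPKM of 1 or more, in library 7, where 25.2% of all rows were. FPKM counts fragments per kilobase of transcript, scaled to library size, so levels can be set side by side between genes. Ordered by the mean FPKM of libraries 7 to 10, the genes were Irak1 (50.3), Lbp (42.5), Cd14 (24.2), Tlr2 (14.5), Ly96 (11.7), Myd88 (11.4), Ticam1 (8.05), Tlr3 (7.18), Tlr4 (6.82) and Tlr6 (6.30). The receptors Tlr3, Tlr4 and Tlr6 took the last 3 places. The ranges over the 4 libraries overlapped for Irak1 and Lbp, for Ly96 and Myd88, and for each neighbouring pair from Ticam1 down to Tlr6. Read within each library, Ticam1 was above Tlr3 in all 4, whereas the order of the other overlapping pairs changed between libraries. Lbp and Cd14, Cd14 and Tlr2, Tlr2 and Ly96, and Myd88 and Ticam1 had ranges that did not overlap.

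**Figure D1:**
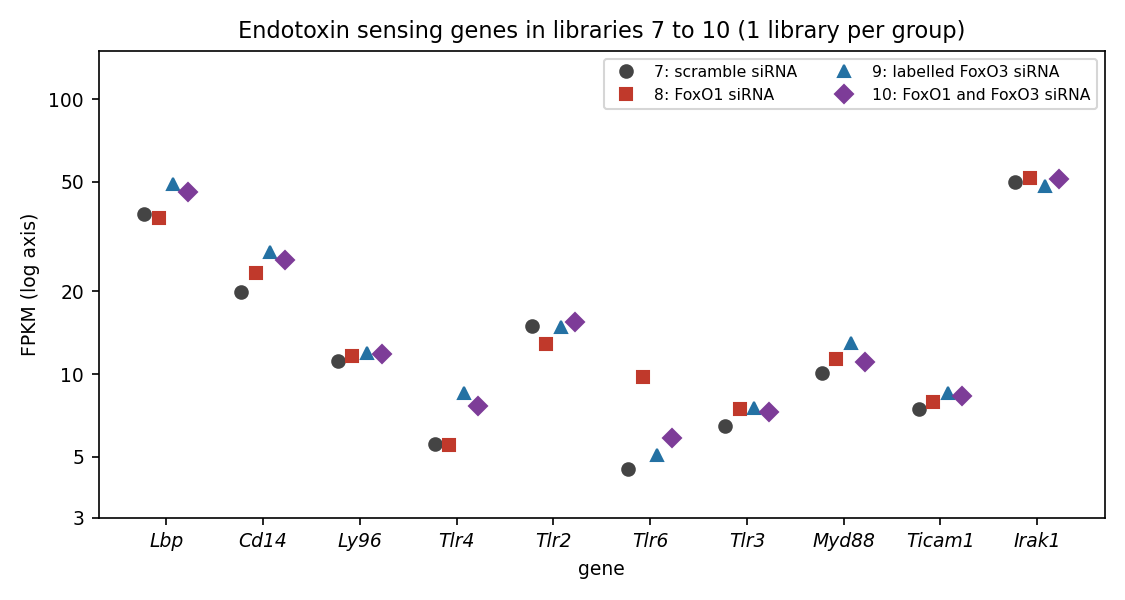
FPKM (log axis) of the 10 genes in library 7 (scramble siRNA), library 8 (FoxO1 siRNA), library 9 (labelled FoxO3 siRNA) and library 10 (both siRNAs), 1 point per library. Irak1 and Lbp lie highest, and Tlr6 has its library 8 point at 9.72 FPKM while its other points lie between 4.53 and 5.86 FPKM.

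Lbp (ENSMUSG00000016024, GRCm38 chromosome 2, 158306493 to 158332852), the carrier that extracts endotoxin from bacterial membranes, stood at 38.1 FPKM in library 7, 36.8 in library 8, 49.1 in library 9 and 46.1 in library 10. In library 7 it lay above 75.2% of the detected genes. Libraries 9 and 10 were the higher pair. As log2((a + 1)/(b + 1)) of FPKM, the scale of every ratio given here, the difference from library 7 was -0.05 in library 8, 0.35 in library 9 and 0.26 in library 10.

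Cd14 (ENSMUSG00000051439), the surface protein that passes endotoxin on from Lbp, was read at 19.9 FPKM in library 7, 23.4 in library 8, 27.7 in library 9 and 25.9 in library 10. It lies on chromosome 18 (36725074 to 36726736). Library 7 held its lowest value, which lay above 56.7% of the detected genes, and the ratios to that library were 0.22, 0.45 and 0.36. Each Cd14 ratio rests on 1 library per group.

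Ly96 (ENSMUSG00000025779, chromosome 1, 16688051 to 16709611), the co-receptor that binds the lipid part of endotoxin, was nearly level at 11.2, 11.7, 11.9 and 11.9 FPKM in libraries 7 to 10. Its ratios to library 7 were 0.06, 0.08 and 0.07, the tightest range among the endotoxin-handling genes. Its level thus lay above that of Tlr4 in all 4 libraries.

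Tlr4 (ENSMUSG00000039005, chromosome 4, 66827584 to 66930284), the signalling receptor for endotoxin, stood at 5.59 FPKM in library 7, 5.50 in library 8, 8.54 in library 9 and 7.66 in library 10. In library 7 it lay above 23.7% of the detected genes. Libraries 9 and 10 held the higher values and libraries 7 and 8 the lower. The ratios to library 7 were -0.02, 0.53 and 0.39, and those to library 8 were 0.55 in library 9 and 0.41 in library 10. None reached the size rule of 0.58, a 1.5-fold difference either way. With a pseudocount of 0.1 FPKM in place of 1, the ratio of library 9 to library 7 was 0.60 and did. Each Tlr4 ratio rests on 1 library per group. Lbp, Cd14, Ly96, Tlr4 and Ticam1 all had libraries 9 and 10 above libraries 7 and 8, whereas the other 5 genes did not. For Ly96 (11.7 FPKM in library 8, 11.9 in library 10) and Ticam1 (7.91 and 8.30) the gap was small. This order was picked out after the values were seen, and its share over all genes was not computed, so nothing is read from it. All ratios to library 7 share that library, so they are not separate evidence.

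Tlr2 (ENSMUSG00000027995, chromosome 3, 83836272 to 83841767) pairs with Tlr6 or Tlr1 to sense bacterial lipopeptides. It was the highest of the 4 receptors, at 15.02, 12.8, 14.8 and 15.4 FPKM in libraries 7 to 10. Library 8 was the lowest, with a ratio of -0.21, and libraries 9 and 10 stood at -0.02 and 0.03.

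Tlr6 (ENSMUSG00000051498, chromosome 5, 64952031 to 64960097), the partner of Tlr2 for diacylated lipopeptides, was the gene that varied most. It stood at 4.53 FPKM in library 7, 9.72 in library 8, 5.07 in library 9 and 5.86 in library 10. Library 8, with FoxO1 siRNA, was apart from the other libraries. Its ratio to library 7 was 0.96, against 0.13 for library 9 and 0.31 for library 10, and set against library 8 it was -0.82 in library 9 and -0.65 in library 10. Library 10 received FoxO1 siRNA as well. The authors' deposited table gives Tlr6 a p-value of 0.00935 and a q-value of 0.999 for library 8 against library 7.

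The Tlr6 value has a limit in its sequence. Tlr6 and its neighbour Tlr1 share 259 of the 3652 windows of 100 bases in the Tlr6 transcripts (7.09%), in 3 identical runs, the longest of 229 bases and all of it coding. A read of 100 nt from such a window cannot be placed in one gene or the other by its own bases. The stretch shown, at GRCm38 chr5:64953893-64953992 on the minus strand, is 1 such window of the longest run, printed 5′ to 3′ in lower case with no base marked.
Tlr6 and Tlr1: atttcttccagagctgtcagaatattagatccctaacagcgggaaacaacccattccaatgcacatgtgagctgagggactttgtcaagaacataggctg
Tlr1 itself was at 0.78, 0.99, 0.84 and 0.61 FPKM in libraries 7 to 10, under the level of Tlr6 in each. The part of shared reads in the library 8 value was not tested.

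Among 9080 genes, the 5 closest to Tlr6 over the ratios of libraries 8, 9 and 10 to library 7 were Telo2, Ttc23, Il11ra1, Fam57a and Rhebl1. Likeness was the Euclidean distance over the 3 log2 ratios, which came from 4 libraries, and it ran from 0.36 for Telo2 to 0.46 for Rhebl1. None of the 5 had as large a ratio of library 8 to library 7 as Tlr6: Telo2 had the ratios 0.73, 0.15 and 0.58.

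Tlr3 (ENSMUSG00000031639, chromosome 8, 45395665 to 45410608), an endosomal receptor for double-stranded RNA that signals through Ticam1, was at 6.46, 7.49, 7.5 and 7.28 FPKM in libraries 7 to 10. Library 7 was the lowest, and the ratios were 0.19, 0.18 and 0.14. Gm45542, a gene on the opposite strand, overlaps 7.32% of its exonic bases. Whether counting used strand is not given in the sources used here, so reads of the 2 genes cannot be told apart there.

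Myd88 (ENSMUSG00000032508), the adaptor of every Toll-like receptor except Tlr3, was at 10.1, 11.3, 12.97 and 11.1 FPKM in libraries 7 to 10. Library 9 was the highest, with a ratio of 0.33, and libraries 8 and 10 stood at 0.15 and 0.12. The locus in the deposited tables runs over 224343 bases of chromosome 9 (119169455 to 119393797), whereas the annotated gene covers 5478 (119335934 to 119341411). Acaa1a, on the opposite strand, overlaps 11.3% of the Myd88 exonic bases, so the Myd88 value is uncertain.

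Ticam1 (ENSMUSG00000047123, chromosome 17, 56269319 to 56276786), the adaptor of Tlr3 and of endosomal Tlr4, was at 7.44, 7.91, 8.57 and 8.30 FPKM in libraries 7 to 10. Its ratios to library 7 were 0.08, 0.18 and 0.14. Irak1 (ENSMUSG00000031392, chromosome X, 74013914 to 74023936), a kinase that acts just after Myd88, had the highest mean of the 10 genes. It stood at 50.1, 51.6, 48.2 and 51.2 FPKM in libraries 7 to 10, and in library 9 Lbp was higher, at 49.1. The Irak1 ratios stayed between -0.06 and 0.04, with libraries 8 and 10 marginally above library 7 and library 9 below it.

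Set together, 1 of the 10 genes, Tlr6, was past 0.58 in library 8 against library 7, and it was higher. A gene counted as measured where the higher of the values compared was 1 FPKM or above. Of the 12006 measured genes, 1.44% passed upwards and 1.24% downwards. Among genes with a mean of 5 to 20 FPKM over the 2 libraries, 0.695% were higher. Tlr6 fell in this class through its library 8 value. Among genes with a mean of 1 to 5 FPKM, where its library 7 value lies, 3.76% were higher. For library 9 none of the 10 was past 0.58, beside 2.23% of 12045 genes higher and 2.30% lower. For library 10 none was either, beside 1.60% of 12062 higher and 1.36% lower. Nothing is read from these counts, since the genes were chosen with the ratios known.

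The median ratio of the 10 genes was 0.07 in library 8, 0.18 in library 9 and 0.14 in library 10, beside -0.01, -0.02 and -0.02 over all measured genes. Ratios above 0 were found for 7, 8 and 10 of the 10 genes, and for 48.1%, 45.9% and 45.7% of all genes. The robust spread of the ratios of all genes with a mean of 5 to 20 FPKM was 0.15 in library 8, 0.19 in library 9 and 0.15 in library 10. For genes of 20 FPKM and above it was 0.10, 0.14 and 0.11. The ratios of Cd14 in all 3 libraries and of Lbp in libraries 9 and 10 were larger than that. In the class of 5 to 20 FPKM, Tlr4 in libraries 9 and 10, Tlr6 in 8 and 10, and Myd88 in 8 and 9 passed its spread. Tlr2 and Tlr3 did so in library 8. The share of all genes past the spread was not computed, so nothing is read from this. In the authors' deposited tables, 164 of 13302 genes (1.23%) had p under 0.05 in library 8, and Tlr6 was the only one of the 10 among them. By the authors' deposited tables none of the 10 was under 0.05 in libraries 9 and 10, where 322 of 13389 and 201 of 13356 genes were.

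**Figure D2:**
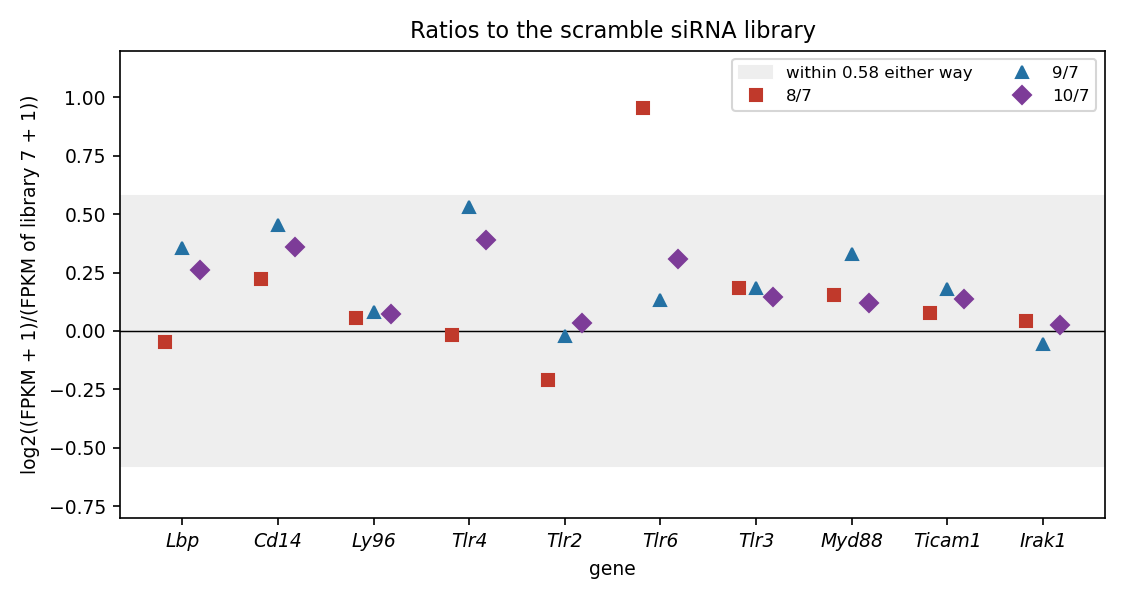
Ratios log2((FPKM + 1)/(FPKM of library 7 + 1)) of libraries 8, 9 and 10 to library 7 for the 10 genes, 1 point per library pair, with a grey band for values within 0.58 either way. Tlr6 in library 8 is the point outside the band, at 0.96, and Tlr4 in library 9 comes nearest to it among the rest, at 0.53.

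Lbp was the single one of the 10 genes in the joined list of genes whose FPKM was higher in library 2 than in library 1. It stood at 4.46 FPKM in library 1 with buffer, 19.7 in library 2 with Wnt3a, 6.00 in library 5 with H2O2 and no Wnt treatment entered, and 90.0 in library 6 with H2O2 and Wnt3a. Within each pair the library with Wnt3a was the higher. The ratio of library 2 to library 1, which the list was selected on, was 1.92 (4.41-fold), and 18 of the 1852 listed genes, Lbp among them, were at or above it.

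The ratio of library 6 to library 5 shares no library with that selection. For Lbp it was 3.70 (15.02-fold), and 9 of the listed genes, Lbp included, were at or above it. Of the 522 measured genes of the list, 37.0% were higher by 0.58 in library 6, and 3.99% of all genes detected in library 7 are in the list. The Lbp ratio was 1.78 greater with H2O2 than without, and 5 listed genes had a greater difference. This difference was not tested, having 1 library per group. The list joins tables that were scaled apart, so Lbp levels in libraries 1 and 2 are not set against those in libraries 5 and 6. A gene outside the list has no value here for libraries 1, 2, 5 and 6, so the Wnt3a response of the other 9 genes was not analysed here.

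**Figure D3:**
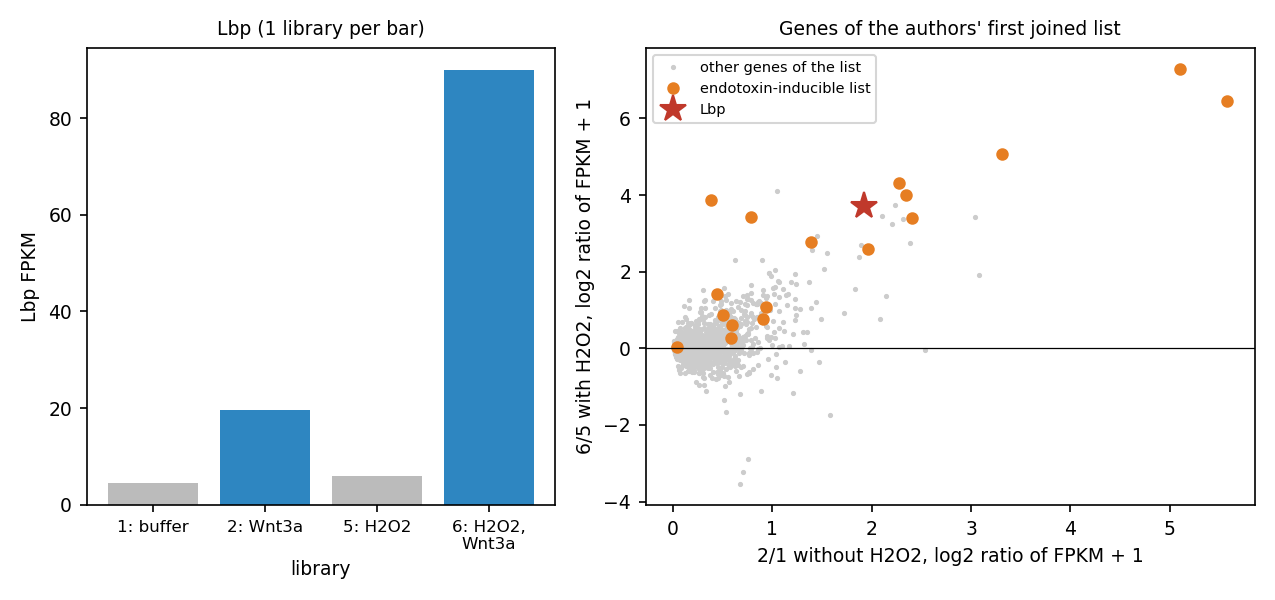
Lbp FPKM in libraries 1 and 2 (no H2O2) and 5 and 6 (H2O2), 1 bar per library, and the ratios 2/1 and 6/5 (log2 of FPKM + 1) of the genes in the joined list, with Lbp as a star and the genes known to rise with endotoxin in orange. The bars of the 2 pairs come from tables scaled apart. Lbp stood at 4.46 and 19.7 FPKM without H2O2 and at 6.00 and 90.0 with it.

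A list of other Toll-like receptors, their chaperones and some related proteins, among them Scarb1 and Cd36, held 17 genes. Of these, 6 were detected in library 7 and 10 were under 0.5 FPKM in all 4 libraries. The highest were Hsp90b1 (355 FPKM in library 7), Scarb1 (58.9) and Cnpy4 (48.7). Hsp90b1, a chaperone that Toll-like receptors need to fold, and Cnpy3 (16.3), its co-chaperone, were both present. Unc93b1, which carries nucleic-acid-sensing receptors to endosomes, was at 4.69. The flagellin receptor Tlr5 stood at 2.04, 1.39, 1.29 and 1.31 FPKM in libraries 7 to 10. Tlr8, Tlr11, Tlr12, Cd36 and Ly86 were listed at 0 in all 4 libraries, and Tlr7, Tlr9 and Tlr13 were at most at 0.0827 FPKM. In each of the 3 comparisons 6 of the 17 were measured, and none of these was past 0.58.

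Of 21 other adaptors and kinases, 19 were detected and none of these was past 0.58. Tab2 (86.5 FPKM in library 7), Chuk (40.3) and Map3k7 (39.8), which lie between the receptors and NF-kB, were the most abundant. Tirap, the adaptor that brings Myd88 to Tlr4, was at 8.59, and Traf6, the ubiquitin ligase downstream of Irak1, at 10.7. Irak4, which activates Irak1, was at 4.61. Ticam2, the adaptor that links Tlr4 to Ticam1, was the exception, listed at 0, 0.02, 0 and 0.02 FPKM in libraries 7 to 10.

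Among 17 inhibitors, 12 were detected and 1 was past 0.58: Il1rl1, a receptor of interleukin 33, at 14.9 FPKM in library 7 and 23.6 in library 8, a ratio of 0.63. Nfkbia, the inhibitor that holds NF-kB in the cytoplasm, was at 42.9 FPKM in library 7, and Tnfaip3, an enzyme that shuts off NF-kB signalling, at 28.9. All 15 transcription factors of the pathway were detected, led by Nfkbiz (111), Nfkb1 (98.02) and Rela (67.5). In library 9 Fos was higher by 0.68, and Nfkbiz (-0.68) and Irf7 (-1.15) were lower. Over all measured genes 1.44% were higher by 0.58 in library 8, and in library 9 2.23% were higher and 2.30% lower.

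**Figure D4:**
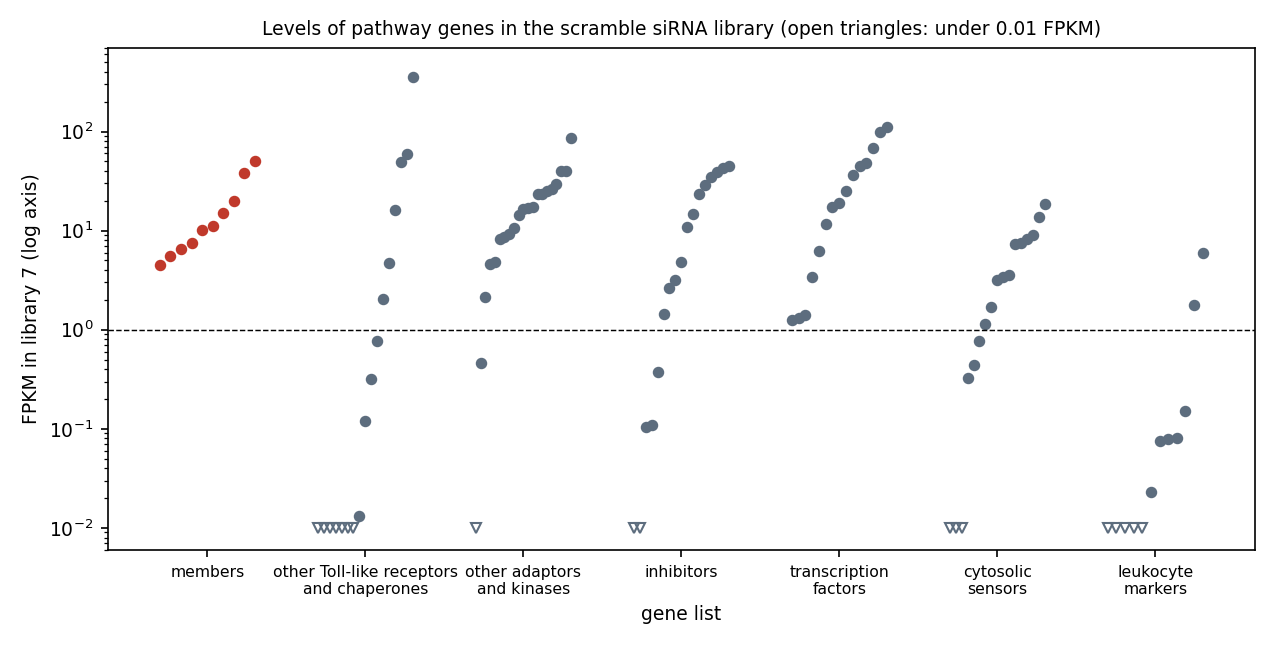
FPKM in library 7 (log axis) of the genes in each list of the pathway, 1 point per gene, beside the 10 genes described here (red, on the left) and leukocyte markers (on the right), with a broken line at 1 FPKM, from which a gene counted as detected; open triangles are genes under 0.01 FPKM. Adaptors and kinases (19 of 21) and transcription factors (15 of 15) lie mostly above the line. Of the list of other Toll-like receptors and chaperones, which holds some related proteins too, 6 of 17 lie above it. Tlr5 is the only Toll-like receptor among these 6.

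The genes known to rise in cells given endotoxin, which also rise with other activators of NF-kB, numbered 28, and 19 were detected in library 7. Ccl2 (1522 FPKM), Cxcl1 (864) and Csf1 (396), a pair of chemokines and a macrophage growth factor, were the highest. Tnf was at most at 0.0786 FPKM and Il6 at most at 0.539 over the 4 libraries, and Il1b and Ifnb1 were listed at 0 in all 4. In libraries 8 and 10 none was past 0.58. Library 9 had 2 higher, among them Saa3 at 1.35, and 3 lower, among them Ccl5 at -1.40 and Cxcl10 at -1.03. Over all measured genes 2.23% were higher and 2.30% lower in library 9, 1.44% and 1.24% in library 8, and 1.60% and 1.36% in library 10.

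Of the 19 detected, 16 (84.2%) are in the joined list that holds Lbp, beside 3.99% of all genes detected there. The list holds 17 of the 28. Of the 16 of these measured in libraries 5 and 6, 15 were higher in library 6 by 0.58 or more, and the median ratio of the 17 was 2.79. Over the 522 genes of the list measured in libraries 5 and 6, 37.0% were higher by that rule and the median ratio was 0.33. Ccl2 went from 148 FPKM in library 5 to 1565 in library 6, and Cxcl1 from 21.1 to 745. These genes were listed with earlier results of the same libraries known, so the counts are a description.

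Endotoxin inside the cell has a separate sensor, Casp4 (caspase-11 in mouse). It was at 8.94, 10.5, 7.99 and 11.5 FPKM in libraries 7 to 10. In the joined list it went from 3.87 in library 1 to 7.39 in library 2, a ratio of 0.78, and from 4.86 in library 5 to 9.76 in library 6, a ratio of 0.88. Of the 17 cytosolic sensors 11 were detected in library 7. None of the 12, 11 and 11 measured for libraries 8, 9 and 10 was past 0.58. Host proteins reported as ligands of Tlr2 or Tlr4 were also read: Fn1 (404 FPKM), Hspd1 (289) and Hmgb1 (150) were the highest, and S100a8 and S100a9 were listed at 0 in all 4 libraries.

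Promoter windows from 250 bases before to 50 after the start (RefSeq, GRCm38.p6) were at hand for 6 of the 10 genes, Tlr2, Tlr3, Tlr6, Myd88, Ticam1 and Irak1, in 8 windows, and were searched on both strands. The FoxO core GTAAACA, which occurs in 3.65% of 32851 windows, was in none of the 8, and the TCF/LEF motif CTTTGAT (3.73%) was in none. The interferon-stimulated response element, taken as GAAA, any pair of bases, then GAAA (3.44%), was in 2 windows, and the NF-kB form, GGGA, any pair of bases, then TTCC (1.47%), in 1, of Tlr3 at 211 to 202 bases before the start. A match is a run of letters and not a site shown to act. The stretch that holds the response element is shown for Tlr6 (250 to 1 bases before the start) and Myd88 (250 to 31), on the minus strand and 5′ to 3′, with the matched bases in capitals. In Tlr6 the matches at 116 to 107 and 110 to 101 bases before an inner start overlap and read on the other strand; this window lies in an intron of the longer transcript. In Myd88 the match lies at 40 to 31 bases before a start at 119340018. That start lies inside the annotated gene (119335934 to 119341411). The Tlr3 start used above, 45410380, also lies inside its annotated gene (45395665 to 45411080).
Tlr6, chr5:64959167-64959416: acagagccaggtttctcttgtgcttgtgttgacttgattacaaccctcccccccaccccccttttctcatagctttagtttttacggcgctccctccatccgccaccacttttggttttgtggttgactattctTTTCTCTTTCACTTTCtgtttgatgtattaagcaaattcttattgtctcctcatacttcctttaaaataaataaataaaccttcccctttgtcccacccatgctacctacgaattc
Myd88, chr9:119340049-119340268: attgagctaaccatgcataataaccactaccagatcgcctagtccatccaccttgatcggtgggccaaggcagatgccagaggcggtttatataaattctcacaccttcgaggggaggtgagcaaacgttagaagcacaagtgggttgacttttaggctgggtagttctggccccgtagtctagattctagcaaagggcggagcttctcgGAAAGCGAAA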

How the data were processed

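Total RNA of 10 libraries, 1 per group, was sequenced. The authors deposited FPKM, p-values and q-values (named so per the file headers) in 3 all-gene tables that set libraries 8, 9 and 10 against library 7, and FPKM values of 4 libraries in each of 2 joined lists of selected genes. TopHat2, Cufflinks, Cuffdiff and the build mm10 are named in the submitters' processing notes; versions, annotation and the use of strand were not given in the sources used here. Deposited p-values and q-values compare single libraries and are printed as the authors' own.

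Members were found by symbol and checked by identifier. The members and all gene lists were chosen with earlier results of these data known. Library 7 values come from the table of library 8; they differ slightly between tables, so each ratio was formed within its table, as log2 with a pseudocount of 1 FPKM, and 9/8, 10/8 and 10/9 are differences of those ratios. The size rule was 0.58 either way among genes of 1 FPKM or more in either library. With 1 library per group no test was made, and the depth is unknown. A fold on this scale understates the change of low genes, and a value of exactly 0 can be a failed estimate. The robust spread is the scaled median absolute deviation. All 10 members were named; of each list, the 3 highest in library 7 and the 3 with the greatest ratios were candidates for naming, and other list genes named were chosen after their values were seen. The calculation was run on simulated data with planted changes well past the size rule. This checks the arithmetic and not how the rule performs on these libraries. Python 3.11.15, numpy 2.4.6, pandas 2.3.3 and matplotlib 3.10.9 were used.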

Additional observations from a re-analysis of the deposited data

How the results depend on the processing

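Ratios of single members were recomputed under 4 alternatives: a pseudocount of 0.1 or 5 FPKM, none (chosen after seeing the data), and centring on the median of all measured genes. Of 120 such values 118 moved by less than the spread among genes, and none changed direction. The Tlr6 ratio of library 8 to library 7, 0.96, was 0.63 with a pseudocount of 5 and 1.10 with none. With a size rule of 1, 0 members passed in library 8 in place of 1. In library 9, 1 member, Tlr4, passed with a pseudocount of 0.1 or none, in place of 0. The Lbp ratio of library 2 to 1, 1.92, was 2.12 with a pseudocount of 0.1, 1.38 with 5 and 2.14 with none; that of library 6 to 5, 3.70, was 3.89, 3.11 and 3.91. At a minimum of 5 FPKM 9 members were detected in place of 10. No paired analysis was possible because each group has 1 library, and for the same reason no replicate could be left out. With no counts given, what depth limits cannot be stated.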
